A study of Mus musculus with 4 samples.

Results

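The 40 genes described here take part in the sensing of nucleic acids inside cells and in the response to interferon. They were chosen by name, with earlier results of these data known. The list holds known sensors, signalling proteins, transcription factors and interferon-stimulated genes. Each gene was matched exactly to a gene symbol among the 53379 genes measured. Their RNA was followed in DKO741, a mouse embryonic stem cell (mESC) line that was derived from E14 cells by disrupting both alleles of Terc, the RNA template of telomerase, with the TR-10 targeting construct. Cre, delivered by adenovirus, excised the neo selection marker of the first targeted allele. After a telomere crisis, rare survivors of this line kept their telomeres by alternative lengthening of telomeres (ALT), and the comparison was between pre-ALT cells at PD100 and post-ALT cells at PD800. PD stands for population doublings, although a label also speaks of passages 100 and 800. Each group had 2 libraries, described in the methods of the study as biological duplicates. All 4 libraries carry the Terc knock-out, no library of Terc+/+ cells was analysed here, and a single clonal line stands behind both groups, so that p-values measure only the spread between these libraries. Fibroblast feeders were used to maintain and store the cells, and feeder-free cells were taken for extraction.

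Double-stranded RNA in the cytosol is recognised by helicases that signal through the mitochondrial adaptor MAVS, and cytosolic DNA is recognised by cGAS, which signals through STING. Both routes meet at the kinase TBK1 and the factor IRF3, which switch on type I interferon genes. Secreted interferon then acts through a receptor and a complex that contains STAT2 and IRF9, which binds interferon-stimulated response elements and raises the level of many antiviral genes. Embryonic stem cells are known to make and answer interferon only weakly, while keeping a basal level of some interferon-stimulated genes.

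The expected counts, RSEM's estimate of the fragments that come from a gene, summed to between 32454121 and 38492149 per library. Levels of a gene are in CPM, expected counts brought to a common library size with edgeR's TMM factors, and the 4 values follow the order PD100 replicates 1 and 2, then PD800 replicates 1 and 2. A floor of 3 counts corresponded to 0.0743 to 0.0933 CPM and covers counting error only. Terc itself was at 0 counts in every library but PD100 replicate 1, which had 1. All 8 ES cell markers (Pou5f1, Sox2, Nanog, Zfp42, Esrrb, Tdgf1, Utf1 and Dppa5a) were detected and none was lower in PD800 cells, while Nanog and Esrrb were called higher. A gene was called at a fold change over 2 and an adjusted p under 0.01, given here always by the quasi-likelihood test of edgeR and adjusted by Benjamini-Hochberg over the 19148 genes tested. Fold changes are PD800 over PD100, and errors on the log2 scale are standard errors (SE). An exact permutation test of 2 libraries against 2 cannot give a two-sided p below 0.333, so the adjusted p-values draw on edgeR's estimate of spread across genes.

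Antiviral effectors and antigen-processing genes held most of the changes, and most of those past the test were falls in post-ALT cells. Of the 40 genes, all of which passed the expression filter, 22 were called, against 15.1% of all genes tested. In detail, 20 were called lower in PD800 cells, against 8.81%, and 2 were called higher (Ifitm2 and Ifi27), against 6.28%. Counting genes past the adjusted p at any size of change, 26 of 40 were lower, against 15.4% of all genes, and 2 were higher, against 13.1%. The median log2 fold change was -1.03 (quartiles -2.07 and -0.38), beside 0.01 over all genes tested (quartiles -0.46 and 0.43). The changes ran from -4.36 for Psmb8 to 1.63 for Ifitm2. In 11 of the 40 genes the fall was over 4-fold with an adjusted p under 0.01, against 3.88% of all genes. The 2 libraries of each group did not overlap in 38 genes, 32 of them lower and 6 higher in PD800 cells, against 36.3% and 37.4% of all genes. Only Irf3 and Xaf1 overlapped between the groups among these 40. In bulk RNA, fewer cells that express a gene and less RNA per cell cannot be told apart.

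**Figure D1:**
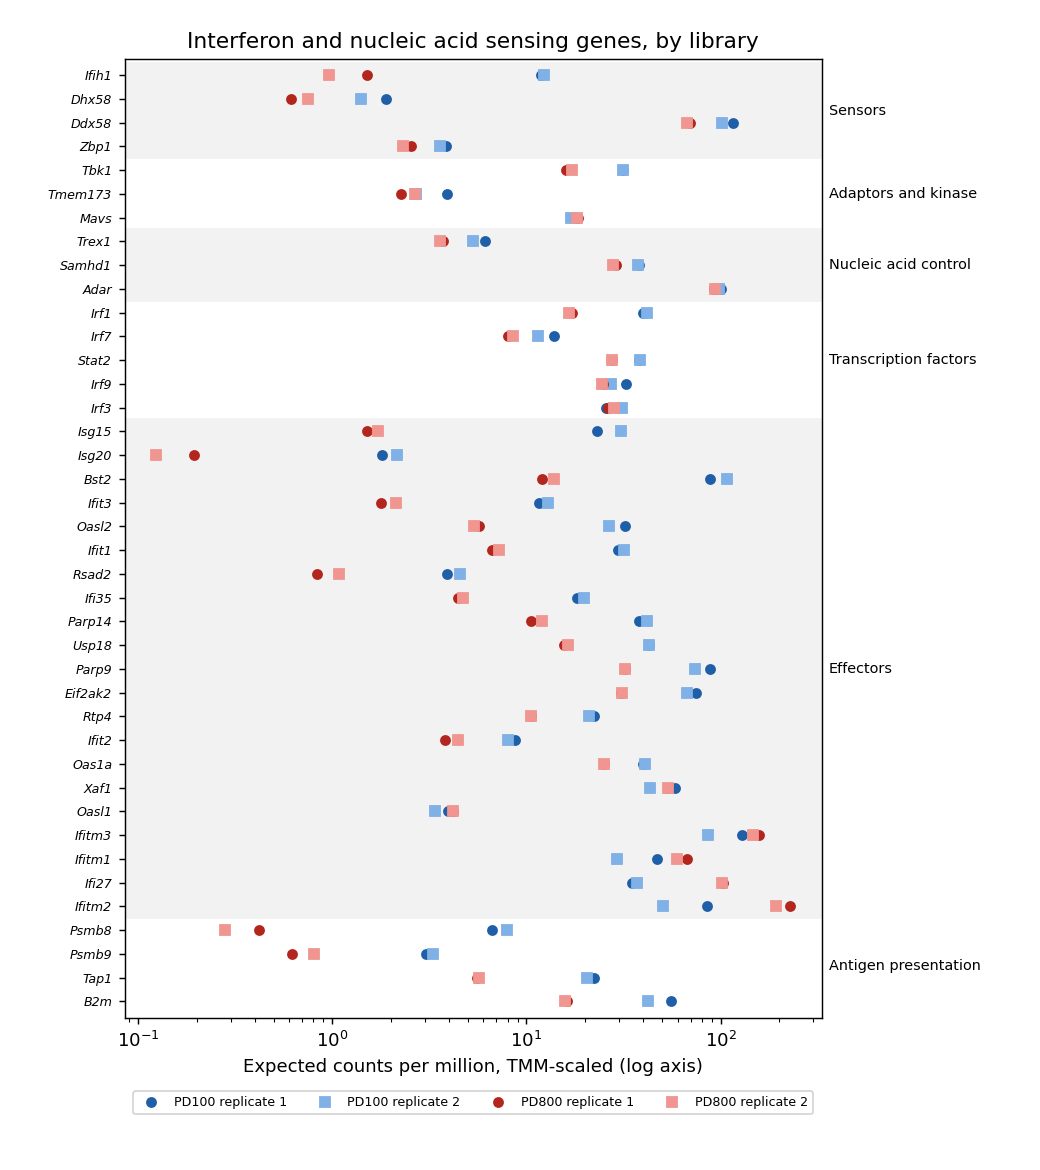
Level of each of the 40 genes in each library, in CPM on a log axis. Circles are replicate 1, squares replicate 2, blue PD100 and red PD800. Isg15, Isg20, Ifih1 and Psmb8 show the widest gaps between the groups, while Irf3 and Xaf1 overlap and the Ifitm genes and Ifi27 lie higher in PD800.

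The antigen-processing genes, which make and load peptides for MHC class I, fell in all 4 cases (median log2 fold change -2.04). Psmb8, an interferon-inducible catalytic subunit of the immunoproteasome, was at 6.68, 7.90, 0.417 and 0.280 CPM. Both PD800 libraries lay far under both PD100 libraries, 20.9-fold lower by the group means, and the log2 fold change of -4.36 (SE 0.24, adjusted p = 0.000105) was the lowest of the 40 genes. Psmb9, another such subunit, was at 3.02, 3.30, 0.622 and 0.805 CPM and fell by 2.15 on the log2 scale (SE 0.23, adjusted p = 0.000881). Tap1, a subunit of the peptide transporter of the endoplasmic reticulum, was at 22.2, 20.4, 5.58 and 5.66 CPM and fell by 1.92 (SE 0.10, adjusted p = 8.44e-05). These 3 genes are neighbours on chromosome 17 of GRCm38 (Psmb9 at 34181987 to 34187764, Tap1 at 34187553 to 34197225, Psmb8 at 34197721 to 34201454). Exons of Psmb9 and Tap1 overlap on opposite strands, and RSEM divided some reads between genes in all 3. B2m, the invariant light chain of MHC class I, was at 55.8, 42.3, 16.2 and 15.7 CPM and fell by 1.62 (SE 0.14, adjusted p = 0.000432).

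Among the sensors, the fall was steep in Ifih1 and shallow or uncalled in the other 3. Ifih1, on chromosome 2 from 62595798 to 62646255, encodes MDA5, the helicase that binds long double-stranded RNA. Its level was 11.9, 12.3, 1.5 and 0.964 CPM, 9.82-fold lower in PD800 cells with no overlap (log2 fold change -3.28, SE 0.20, adjusted p = 0.000132). Ddx58, which encodes RIG-I, the sensor of RNA with a triphosphate end, was at 116, 102, 69.7 and 66.8 CPM and was lower past the adjusted p but under 2-fold (-0.67, SE 0.09, adjusted p = 0.00196). Dhx58, which encodes LGP2, a helicase of the same family without a signalling domain, was at 1.88, 1.41, 0.612 and 0.746 CPM and missed the threshold with a change of -1.28 (SE 0.27, adjusted p = 0.0115). It passed under 5 of the 14 alternative fits, among them without PD100 replicate 2, with a change of -1.49. Zbp1, which senses Z-form nucleic acids, was at 3.86, 3.59, 2.53 and 2.30 CPM (-0.62, SE 0.17, adjusted p = 0.0260).

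Of the adaptors and the kinase downstream of the sensors, none was called. Mavs, the adaptor of the RNA helicases, was at 18.0, 16.9, 18.3 and 18.1 CPM (0.06, SE 0.09, adjusted p = 0.590). Tmem173, which encodes STING, was at 3.91, 2.69, 2.25 and 2.67 CPM (-0.43, SE 0.24, adjusted p = 0.193). Tbk1, the kinase that both routes share, was at 31.3, 31.5, 15.98 and 17.1 CPM and was lower past the adjusted p, 1.90-fold by the group means (-0.92, SE 0.08, adjusted p = 0.000446). Of the 3 genes, Tbk1 was the one whose fall passed the adjusted p. On the TPM scales it was also over 2-fold (-1.09 on log2(TPM + 1)), but there the median of all genes tested was itself -0.12.

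Of the genes that remove or edit nucleic acids of the cell itself, none was called either. Trex1, the main cytosolic DNA exonuclease, was at 6.15, 5.28, 3.72 and 3.60 CPM (-0.64, SE 0.15, adjusted p = 0.0158), and all of its exonic bases are also annotated to Atrip on the same strand, so that reads of these genes could be split uncertainly. Samhd1, which degrades deoxynucleotides, was at 38.0, 37.4, 28.9 and 28.0 CPM and passed the adjusted p with a small change (-0.41, SE 0.07, adjusted p = 0.00629). Adar, which edits adenosines in double-stranded RNA, was at 99.8, 97.5, 92.5 and 93.5 CPM (-0.09, SE 0.07, adjusted p = 0.365).

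Irf1 was the 1 called gene of the 5 transcription factors. Irf1, a factor that drives antigen presentation and antiviral genes, was at 40.02, 41.5, 17.1 and 16.6 CPM, 2.42-fold lower in PD800 cells (-1.27, SE 0.08, adjusted p = 0.000130). Irf7, the amplifier of interferon production, was at 13.8, 11.4, 8.01 and 8.55 CPM and passed the adjusted p at 1.52-fold (-0.61, SE 0.13, adjusted p = 0.00986). Stat2, which carries the transactivation domain of the interferon-activated complex, was at 38.1, 38.4, 27.6 and 27.6 CPM (-0.47, SE 0.07, adjusted p = 0.00335). In 4 of the 5 factors, all but Irf3, the groups stood apart with PD800 lower, against 36.3% of all genes tested. Irf9, the DNA-binding subunit of that complex, was at 32.5, 27.3, 24.7 and 24.4 CPM (-0.29, SE 0.10, adjusted p = 0.0662). Irf3, the factor activated by TBK1, was at 25.5, 30.9, 26.4 and 28.3 CPM, with both PD800 values inside the PD100 range (-0.04, SE 0.11, adjusted p = 0.776).

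The 21 effectors held most of the large changes: 14 were called lower and 2 higher, with a median log2 fold change of -1.34. The steepest fall was that of Isg15, a ubiquitin-like protein joined to other proteins during antiviral responses, at 22.97, 30.7, 1.5 and 1.71 CPM. The PD800 level was 16.7-fold lower (-4.06, SE 0.19, adjusted p = 7.06e-05). Isg15 lies on chromosome 4 from 156199424 to 156200818, 0.155 Mb from the last annotated base of that chromosome. Isg20, an RNA exonuclease, was at 1.81, 2.16, 0.195 and 0.124 CPM, 12.4-fold lower (-3.59, SE 0.33, adjusted p = 0.000498). Its PD800 values rest on expected counts of 7 and 4, just above the floor. Bst2, which encodes tetherin, the membrane protein that holds budding virions, was at 87.9, 108, 11.98 and 13.8 CPM and 7.61-fold lower (-2.93, SE 0.14, adjusted p = 6.95e-05). Rsad2, which encodes viperin, an enzyme that makes a chain-terminating nucleotide, was at 3.89, 4.55, 0.834 and 1.09 CPM (-2.13, SE 0.22, adjusted p = 0.000808).

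The 3 Ifit genes, which encode proteins that bind foreign RNA ends, fell by unequal amounts although they lie together on chromosome 19 between 34550694 and 34650009. Ifit3 was at 11.6, 12.9, 1.78 and 2.14 CPM, 6.25-fold lower (-2.64, SE 0.15, adjusted p = 0.000105), and Ifit1 was at 29.7, 31.8, 6.64 and 7.25 CPM, 4.43-fold lower (-2.15, SE 0.10, adjusted p = 6.49e-05). RSEM divided some reads of both between genes, and near copies such as Ifit3b belong to this family. Ifit2 was at 8.74, 8.02, 3.81 and 4.45 CPM, 2.03-fold lower (-1.02, SE 0.14, adjusted p = 0.00204), which is just past the fold threshold. Its call was lost without PD100 replicate 1 (-0.96) and without PD800 replicate 1 (-0.91).

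The oligoadenylate synthetase family, whose active members make a second messenger in answer to double-stranded RNA, split by gene. Oasl2 was at 32.1, 26.6, 5.70 and 5.38 CPM, 5.30-fold lower (-2.41, SE 0.12, adjusted p = 8.63e-05). Its neighbour on chromosome 5, Oasl1, was at 3.94, 3.38, 4.20 and 4.17 CPM, slightly higher in both PD800 libraries but not past the test (0.19, SE 0.16, adjusted p = 0.365), and its direction turned on the TPM scale (-0.16 on log2(TPM + 1)). Oas1a, a synthetase with near copies beside it, was at 39.7, 40.8, 25 and 25.2 CPM and passed the adjusted p at 1.60-fold (-0.68, SE 0.07, adjusted p = 0.000885). The difference between the changes of Oasl1 and Oasl2 was not tested.

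The translation kinase, the ubiquitin-like protease and the poly(ADP-ribose) polymerases of the response fell between 2- and 4-fold. Eif2ak2, which encodes PKR, the kinase that stops translation on double-stranded RNA, was at 75.02, 67.3, 30.7 and 31.1 CPM (-1.20, SE 0.09, adjusted p = 0.000219). Usp18, which removes ISG15 from proteins and damps receptor signalling, was at 42.6, 42.6, 15.5 and 16.3 CPM (-1.42, SE 0.08, adjusted p = 9.78e-05). Parp14 was at 37.7, 41.9, 10.5 and 12.1 CPM and Parp9 at 87.9, 73.7, 32.0 and 32.1 CPM, with log2 fold changes of -1.82 (SE 0.11, adjusted p = 0.000119) and -1.34 (SE 0.10, adjusted p = 0.000298). In all 4 of these genes the groups did not overlap.

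Of the remaining effectors, Ifi35 and Rtp4 were called lower. Ifi35, a protein that forms cytosolic complexes with NMI, was at 18.2, 19.9, 4.45 and 4.73 CPM, 4.15-fold lower (-2.05, SE 0.10, adjusted p = 8.44e-05). Rtp4, a chaperone of receptors that also restricts viruses, was at 22.2, 20.9, 10.5 and 10.6 CPM, 2.05-fold lower (-1.03, SE 0.09, adjusted p = 0.000380), and fell just under the fold threshold without PD100 replicate 1 (-0.98). Xaf1, an interferon-inducible protein tied to apoptosis, was at 57.9, 43.0, 53.3 and 53.5 CPM, with the PD800 values between those of PD100 (0.08, SE 0.14, adjusted p = 0.678).

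The 2 genes called higher were Ifitm2 and Ifi27. The Ifitm genes encode small membrane proteins that hinder the fusion of viruses with endosomes, and some of them are known to be high in stem cells and germ cells without interferon. Ifitm2 was at 84.7, 50.7, 227 and 193 CPM, 3.10-fold higher in PD800 cells with no overlap (1.63, SE 0.24, adjusted p = 0.00279). Ifitm1 was at 47.0, 29.4, 66.7 and 59.8 CPM (0.73, SE 0.21, adjusted p = 0.0342) and Ifitm3 at 128, 86.0, 157 and 147 CPM (0.51, SE 0.18, adjusted p = 0.0651). In all 3 PD100 replicate 1 lay above replicate 2, and without PD100 replicate 1 Ifitm1 was called as well, with a change of 1.11. Of the exonic bases of Ifitm2, 40.9% are also annotated to the gene Gm45717 on the same strand. Ifi27, a mitochondrial protein of the interferon response, was at 34.8, 37.1, 102 and 102 CPM, 2.85-fold higher (1.51, SE 0.08, adjusted p = 8.27e-05).

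**Figure D2:**
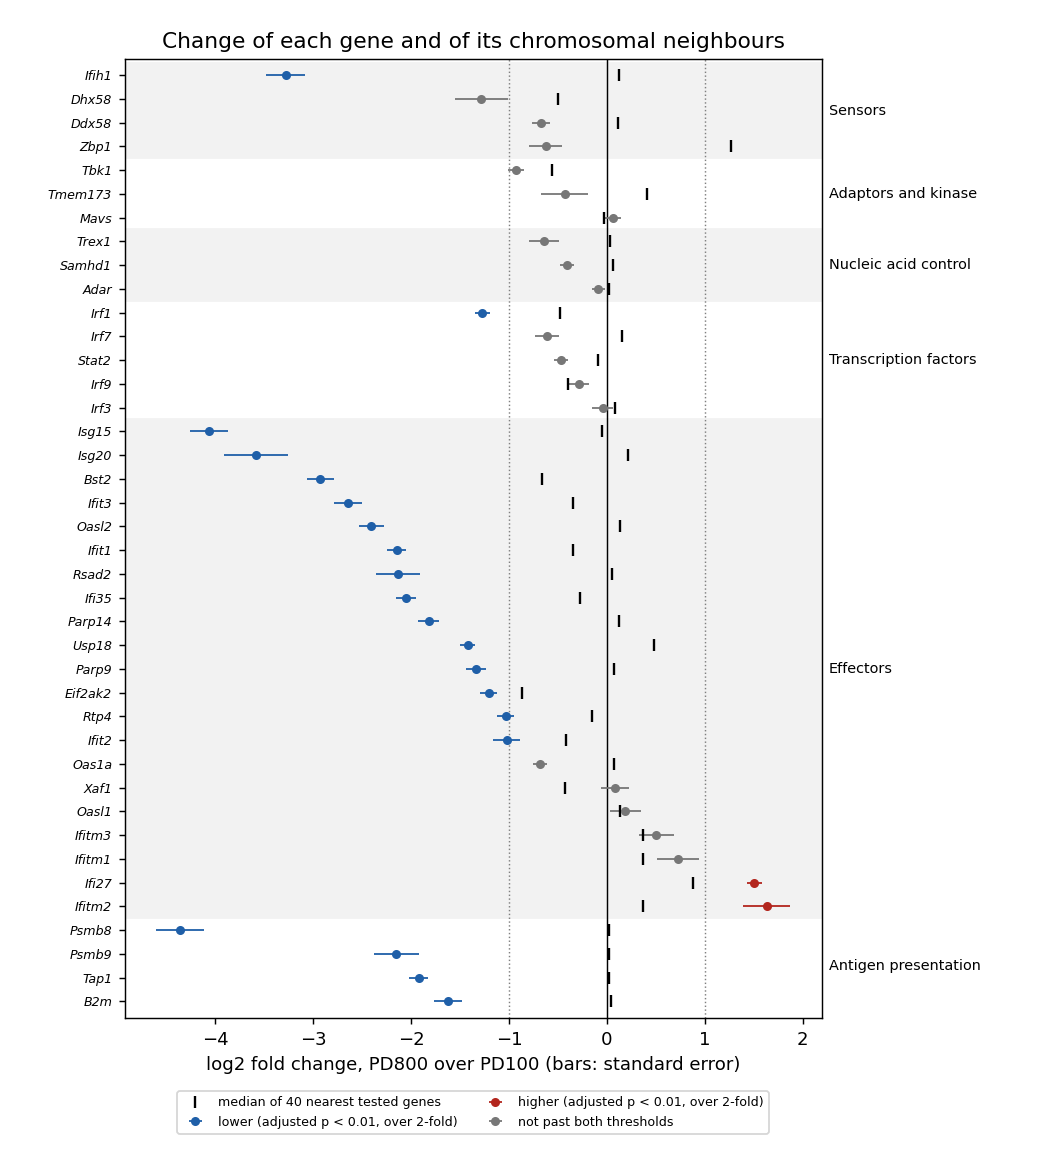
Log2 fold change (PD800 over PD100) of each of the 40 genes (points, with standard errors as bars), grouped by role, with the median log2 fold change of the 40 nearest tested genes on the chromosome as a black tick. Dotted lines mark a 2-fold change. The ticks lie between -0.87 and 1.27, while the called genes on the left reach -4.36.

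Per gene length, the order of the levels changed between the groups. TPM values take gene length into account and can be compared between genes. At PD100 the highest means were those of Ifitm3 (155 ± 57.4 TPM, SD, n = 2), Bst2 (114 ± 6.15 TPM) and Ifitm2 (103 ± 46.0 TPM). These 3 do not differ beyond their spread. At PD800 Ifitm2 was highest (267 ± 41.9 TPM), followed by Ifitm3 (185 ± 16.3 TPM) and Ifi27 (114 ± 8.32 TPM), while Bst2 was at 12.8 TPM. The lowest means were those of Dhx58 at PD100 (0.670 ± 0.0424 TPM) and Isg20 at PD800 (0.130 ± 0.0424 TPM). At PD800 the TPM values of Isg20 overlapped with those of Ifih1, Rsad2 and Psmb8, so that its lowest rank is uncertain.

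**Figure D3:**
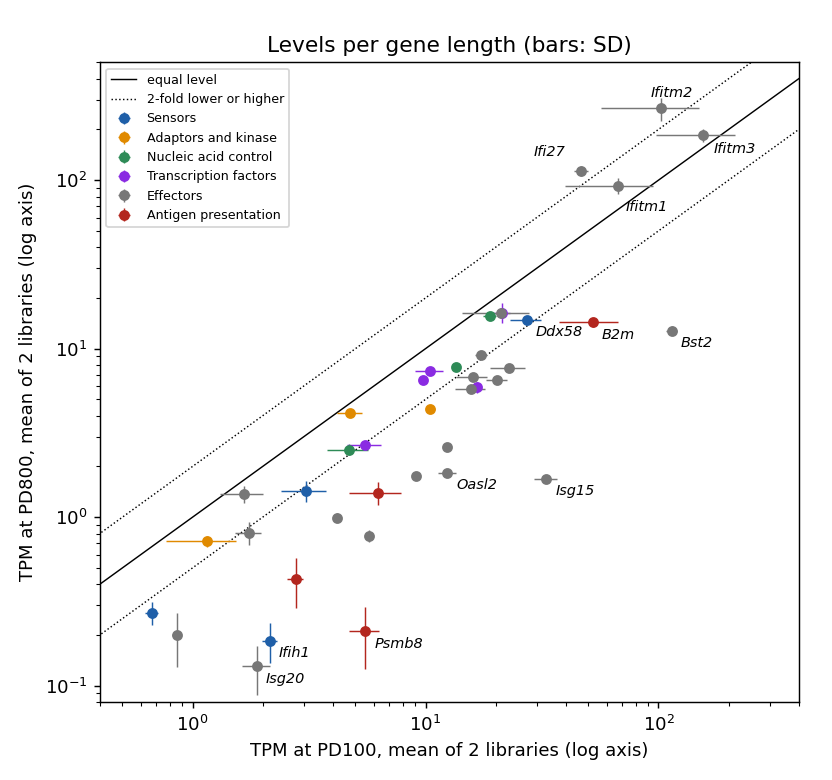
Mean TPM of each of the 40 genes at PD100 (x axis) and PD800 (y axis), both on log axes, with the SD of 2 libraries as bars and colour for role. The solid line marks equal levels and the dotted lines 2-fold differences. Bst2, Isg15 and Psmb8 lie far under the lower line, whereas Ifitm2 and Ifi27 lie above the upper line.

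The genes around the members on their chromosomes were compared in the same fit. The 40 members lie on 16 chromosomes. For each one, the median log2 fold change of the 40 nearest tested genes was computed, and these local medians ran from -0.87 around Eif2ak2 to 1.27 around Zbp1, with a median of 0.04. After the local median was subtracted, all 20 genes called lower stayed below 0 and 16 of them stayed below -1, and the median of the 40 genes was -0.79. Around Isg15 the local median was -0.05, and around Psmb8 and Ifih1 it was 0.03 and 0.12. Some members moved with their surroundings in part. The local median was -0.66 around Bst2, -0.56 around Tbk1 and -0.48 around Irf1. It was 0.37 around the Ifitm genes and 0.88 around Ifi27. After subtraction, the called genes Irf1, Ifit2, Eif2ak2 and Rtp4 were at -0.79, -0.61, -0.33 and -0.88, short of -1, while Bst2 was at -2.27. Whether copy number at these places contributed was not tested.

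Promoter sequences were available for 32 of the 40 genes in a RefSeq table for GRCm38.p6, which holds 250 bases before and 50 bases after each annotated start. The core of the interferon-stimulated response element, GAAA, any 2 bases and GAAA again, was searched on both strands without a mismatch. On the other strand it reads TTTC, any 2 bases and TTTC. At least 1 match was found in 13 of the 32 genes (40.6%), against 3.99% of the 27025 genes of the table. The list was made up of known genes of the interferon response. A higher share follows from that choice and is not a result about these cells. Of the 13 genes with a match, 8 were called lower and 1 higher (median log2 fold change -1.62). Of the 19 without, 8 were called lower (median -0.64). Among other tested genes of the table, 14.9% of the 423 with a match and 9.59% of the 11590 without were called lower. The stretches around the matches of the 7 called genes that hold one upstream of the start are shown, because they cover genes that fell and the 1 gene with a match that rose. Each is printed 5′ to 3′ on the strand of the gene, with the matched letters in capitals.
Isg15: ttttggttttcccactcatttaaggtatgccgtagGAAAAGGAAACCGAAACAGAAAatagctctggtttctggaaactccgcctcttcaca
Bst2: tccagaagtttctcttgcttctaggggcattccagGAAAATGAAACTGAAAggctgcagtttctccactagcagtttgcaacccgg
Ifit1: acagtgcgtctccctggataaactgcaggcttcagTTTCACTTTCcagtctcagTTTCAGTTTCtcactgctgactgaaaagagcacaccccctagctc
Ifit3: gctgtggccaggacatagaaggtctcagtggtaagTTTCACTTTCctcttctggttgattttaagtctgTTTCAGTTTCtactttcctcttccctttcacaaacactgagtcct
Rsad2: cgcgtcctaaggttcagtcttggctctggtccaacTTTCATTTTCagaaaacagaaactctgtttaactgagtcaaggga
B2m: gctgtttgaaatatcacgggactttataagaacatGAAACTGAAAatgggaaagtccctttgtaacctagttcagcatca
Ifitm2: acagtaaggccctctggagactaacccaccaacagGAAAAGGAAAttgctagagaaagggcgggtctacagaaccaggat

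The Isg15 stretch (chr4:156200840-156200931, minus strand) holds 3 overlapping matches in a row, 66 to 78 bases before the start. Bst2 (chr8:71537552-71537637, minus strand) has 2 overlapping matches, 124 to 130 bases before its start. Ifit1 (chr19:34640750-34640848, plus strand) and Ifit3 (chr19:34583338-34583451, plus strand) hold 2 separate matches each, 85 to 104 and 122 to 156 bases before the start. A single match lies 120 bases before the start of Rsad2 (chr12:26456528-26456607, minus strand), 139 bases before that of B2m (chr2:122147513-122147592, plus strand) and 46 bases before that of Ifitm2 (chr7:140955963-140956042, minus strand). Isg15, Bst2, Ifit1 and Ifit3, with more than 1 match upstream, were 4.43- to 16.7-fold lower in PD800 cells. Psmb8, Isg20, Oasl2, Psmb9 and Ifi35, with no match in their windows, were 4.15- to 20.9-fold lower. Oas1a, with 2 overlapping matches 14 and 20 bases before its start, was 1.60-fold lower and not called. Ifitm3, with 2 matches 3 and 20 bases after its start, was 1.42-fold higher and not called. Ifitm2, with the same core letters, was 3.10-fold higher. Matches after the start were also found in Ddx58, Eif2ak2 and Ifih1, and an upstream match in the uncalled gene Stat2. The gamma-activated site, TTC, any 3 bases and GAA, a site of the interferon gamma response, was found on either strand in 11 of the 32 genes (34.4%), against 9.55% of the genes of the table, and 7 of these 11 and 9 of the 21 without it were called lower. Among other tested genes of the table, 9.02% of those with the site and 9.85% of those without were called lower. A match is a description of the letters and not evidence of binding.

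Other genes of the pathway were drawn from lists of 119 genes outside the 40, also chosen with earlier results of these data known. Of the 94 tested, 37 were called lower and 1 higher, against 8.81% and 6.28% of all genes tested. Their median log2 fold change was -0.86. Apart from Ifnk, the interferons themselves were at or near the floor in every library. Of the 21 interferon genes, 16 had no count in any library, and Ifnb1, the interferon beta gene, had expected counts of 8, 0, 3 and 2. Ifnk, the 1 interferon gene that could be tested, had expected counts of 13, 10, 1 and 9 and was not past the test (-1.05, adjusted p = 0.312). For the other interferon genes, a change of RNA was not detectable at this depth.

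Of 16 receptors and signalling components, all of them tested, 4 were called lower (median -0.32). Ifnar1, a chain of the type I interferon receptor, was at 43.0, 38.1, 31.8 and 30.6 CPM (-0.38, SE 0.09, adjusted p = 0.0169), and the other chain, Ifnar2, at 7.45, 7.90, 8.17 and 7.68 CPM (0.05, SE 0.11, adjusted p = 0.751). The receptor kinases Jak1 (-0.09, adjusted p = 0.438) and Tyk2 (0.22, adjusted p = 0.0599) did not pass the test. Those called lower were Irf2, a factor that competes with IRF1 for its sites (-2.63, adjusted p = 0.00102), Ifngr1, a chain of the interferon gamma receptor (-1.62, adjusted p = 0.000835), its kinase Jak2 (-1.28, adjusted p = 0.000541) and the feedback inhibitor Socs1 (-1.14, adjusted p = 0.00633). Irf2 went from 1.65 ± 0.258 to 0.263 ± 0.0207 CPM (SD, n = 2).

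Of 25 further sensing genes, 22 were tested and 5 were called lower. Mb21d1, which encodes cGAS, was at 3.54, 3.38, 2.59 and 2.83 CPM (-0.36, SE 0.17, adjusted p = 0.130). Among those called lower were the DNA-binding Ifi205 (-3.44, adjusted p = 0.00543) and Ifi204 (-2.07, adjusted p = 0.00245), the TBK1-related kinase Ikbke (-1.72, adjusted p = 0.000762) and Unc93b1, which carries nucleic acid-sensing Toll-like receptors to endosomes (-1.05, adjusted p = 0.00416). Ifi205 was low throughout, from 0.678 ± 0.233 to 0.0696 ± 0.0458 CPM (SD, n = 2). None of the 6 nuclease genes was called (median -0.22).

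Of 38 further interferon-stimulated effectors that could be tested, 21 were called lower and 1 higher, with a median of -1.28. Ifi47, given below as a bound, was left out of the ranking that follows. The largest falls were those of Epsti1 (-4.74, SE 0.34, adjusted p = 0.000229) and Sp100, a nuclear body protein (-4.10, SE 0.66, adjusted p = 0.00406). Next came Uba7, the activating enzyme of ISG15 (-3.98, SE 0.32, adjusted p = 0.000335), Parp10 (-3.60, SE 0.11, adjusted p = 3.59e-05) and the helicase Ddx60 (-3.20, SE 0.12, adjusted p = 4.88e-05). The PD800 values of Epsti1 (6 and 3 counts), Sp100 (6 and 0) and Uba7 (5 and 9) lie at or near the floor, so that the order of these 3 is uncertain. Parp10 was at 48.5, 51.5, 3.77 and 4.47 CPM and Ddx60 at 32.2, 35.9, 3.42 and 4.01 CPM, with both groups far apart. The PD800 libraries had 3 and 2 counts of Ifi47, an interferon-inducible GTPase, which was therefore at least 8.82-fold lower when set against the mean floor of 3 counts per library. Oas2, named here after its value was seen, was the 1 effector called higher, at 26.5, 22.9, 67.3 and 65.3 CPM (1.42, SE 0.10, adjusted p = 0.000188).

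In antigen presentation outside the 40 genes, 7 of 11 genes were called lower, with a median of -1.47. H2-K1, a classical MHC class I heavy chain, was at 54.3, 50.3, 17.8 and 18.4 CPM (-1.53, SE 0.08, adjusted p = 9.45e-05). H2-D1, the other classical heavy chain on the list, was at 48.5, 46.9, 27.8 and 26.4 CPM and stayed under 2-fold (-0.81, SE 0.08, adjusted p = 0.000563). MHC class I heavy chains are near copies of one another, so that reads could be split uncertainly among them. Nlrc5, the transactivator of MHC class I genes, was at 3.12, 2.75, 0.334 and 0.622 CPM (-2.63, SE 0.31, adjusted p = 0.00124). Tap2, the partner of TAP1, fell by 2.46 on the log2 scale (adjusted p = 0.000477), and Erap1, the aminopeptidase that trims peptides, also fell by 2.46 (adjusted p = 0.000196). The proteasome subunit Psmb10 (-1.52, adjusted p = 0.000749) and the proteasome activator Psme2 (-1.47, adjusted p = 0.000525) were called lower too.

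**Figure D4:**
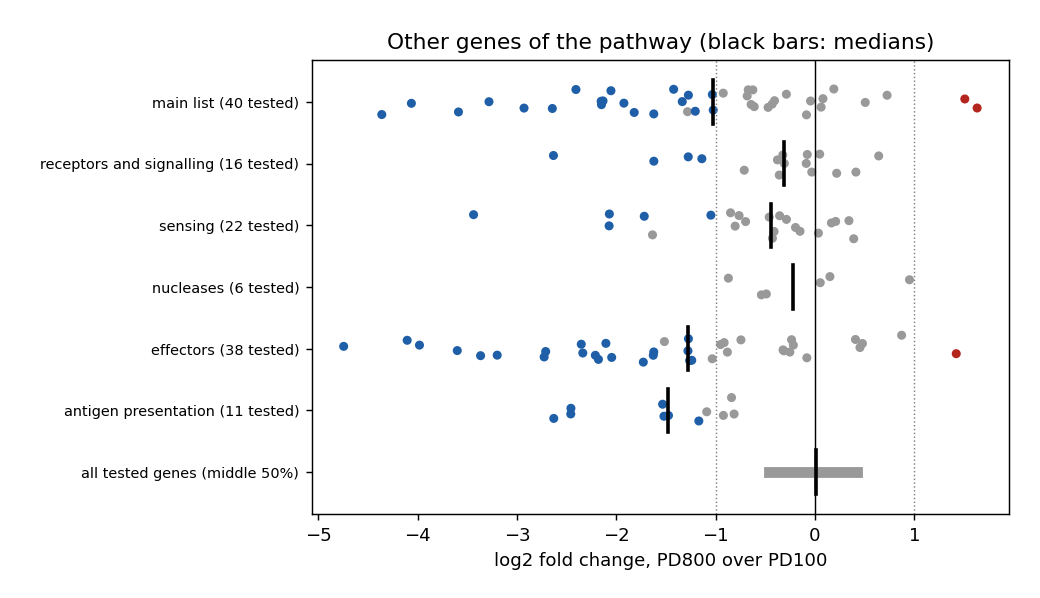
Log2 fold change (PD800 over PD100) of the tested genes of the main list of 40 and of 5 further lists (points, blue called lower, red called higher, grey not called), with black bars at the medians. The lowest row gives the middle 50% of all tested genes. The effector and antigen presentation lists lie furthest to the left, at medians of -1.28 and -1.47.

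Markers of other cells moved with these changes in part. Of 10 fibroblast or feeder markers, 8 were tested and 5 were called lower in PD800 cells (Col1a1, Col1a2, Col3a1, Thy1 and Pdgfra). Expected counts of Col1a1, a fibrillar collagen, were 526, 815, 70 and 81. The summed level of the list was 232 to 269 CPM at PD100 and 227 to 241 CPM at PD800, mostly from Vim, which was higher in PD800 cells past the adjusted p (0.45, SE 0.08, adjusted p = 0.00635). The other 9 markers summed to 76.2 and 100.7 CPM at PD100 and to 12 and 12.8 CPM at PD800, and Pdgfra had the largest fall among them (-4.93, SE 0.12, adjusted p = 3.03e-05). Lum had no count except 1 in PD800 replicate 2. Of the immune markers 7 entries were tested, of which Ptprc, Lyz2 and Csf1r were called lower and Itgam and Cd3e higher, with a summed level of 16.5 to 24.1 CPM at PD100 and 11.4 to 12.4 CPM at PD800. Ptprc, which marks all white blood cells, had expected counts of 31, 28, 3 and 7. The part of such cells in the fall of the interferon-stimulated genes was not tested.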

How the data were processed

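RNA of DKO741 cells was sequenced at PD100 and PD800, with 2 libraries each. The study describes mRNA sequencing, and the labels name total RNA. Per the labels and the methods, the authors aligned reads to mm10 with STAR 2.5.3a and deposited RSEM 1.3.0 expected counts, which are not scaled for depth and in which multi-mapped reads are divided between genes. TPM values, also deposited, were scaled by RSEM for gene length and to one total per library. FPKM values were not used, and the use of strand in counting is not given in the sources used here. Of 53379 gene identifiers, 53274 were found in GENCODE M21 (GRCm38), which gave coordinates.

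Expected counts were rounded and fitted with edgeR 4.0.16 in R 4.3.3 (filterByExpr with a minimum count of 10, TMM, quasi-likelihood test, Benjamini-Hochberg adjustment), with the fit tested on simulated data. CPM values are expected counts over the total scaled by the TMM factor. The SE is the log2 fold change over the square root of its F value. Where a group had no library above 3 counts, a bound against that floor replaced the fold.

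The members and lists were chosen with earlier results of these data known. All 40 members had a mean of at least 1 CPM in either group and are given in full. From other lists, the called genes with the 6 largest changes per list are named, and Mb21d1, Ifnar1, Ifnar2, Jak1, Tyk2, Ifnb1, H2-K1 and H2-D1 whatever their values. Some genes of these lists are not reported here.

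The alternatives were DESeq2 1.42.0, its size factors in edgeR, upper-quartile normalisation, no filter, at least 10 counts in every library, a replicate block, limma 3.58.1 on log2(TPM + 1) and log2(TPM + 0.1), a 2-fold change tested within the model, local medians subtracted, each library left out in turn and, chosen after seeing the data, nuclear protein-coding genes alone.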

Additional observations from a re-analysis of the deposited data

How the results depend on the processing

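Of the 20 genes called lower, 14 kept their call under each of the 14 alternative fits in which they were tested (the subtraction of local medians has no test), and no called gene changed direction. DESeq2, its size factors, upper-quartile normalisation and nuclear protein-coding genes alone gave 20 lower and 2 higher (in the last, Ifit2 lost its call and Dhx58 gained one), no filter gave 21 and 2, and at least 10 counts in every library gave 19 and 2 of 38 tested, with Psmb8 and Isg20 left out. On log2(TPM + 1) with limma, 297 of all genes were called higher and 920 lower (24.4% of calls higher, against 41.6% of the 1202 higher and 1686 lower calls of edgeR), and of the 40 genes 1 was higher and 19 lower (median -0.84). On log2(TPM + 0.1) the counts were 533 and 1779 (23.1% higher), and 1 and 20 of the 40. These scales moved the median of all genes to -0.12 and -0.21, and Mavs (-0.15, -0.17), Xaf1 (-0.31, -0.32) and Oasl1 (-0.16, -0.24), none of them called, changed direction. With 2-fold tested within the model, 386 genes were higher and 685 lower, and 1 and 15 of the 40. With local medians subtracted, the median was -0.79. Ifitm2 lost its call on both TPM scales and within the model, as did Ifit2. Rsad2 lost it on log2(TPM + 1), and Irf1, Parp9, Eif2ak2 and Rtp4 within the model. Dhx58 was also called with no filter, at least 10 counts, the replicate block and without PD100 replicate 2, and Tbk1 on both TPM scales. Leaving out each library gave 880 to 1514 genes higher and 1274 to 1893 lower, 2 to 3 and 18 to 21 of the 40, and a median of -1.10 to -0.97, with the lone library assumed to vary like the other group. Among uncalled genes Irf3 then ranged from -0.17 to 0.076, Mavs from -0.0071 to 0.12 and Xaf1 from -0.14 to 0.31. Same-numbered libraries share only a number (correlation of their deviations 0.265), and with a replicate block 21 of the 40 genes were lower and 2 higher, against 1956 and 1461 of all genes. The causes of these differences were not tested. Groups of 2 libraries and counts near the floor, as in Isg20, limit the precision.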
